A study of Macaca mulatta with 12 samples.

Results

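The small and the large intestine of the rhesus macaque (*Macaca mulatta*) were compared by small RNA sequencing, with 4 of the 12 profiles of the series, 2 from the small intestine and 2 from the large intestine. All 4 profiles came from untreated wild-type macaques that were 36 months old. The tissues of the series were taken from 2 animals, but the labels do not say which animal gave which profile, which segment of either intestine was sampled, or that profiles of 1 group are separate animals, so that the p-values below measure the spread between these profiles, which may be technical. Whole tissue was used, so that fewer cells of a type and less miRNA per cell cannot be told apart. The profiles held 24438680 and 23710183 reads in the small intestine and 22118095 and 23523798 in the large intestine. Of these reads, 51.8% to 64.3% were counted, namely those that were identical to a stretch of a pre-miRNA and whose 5′ and 3′ ends each lay at most 2 nucleotides from the ends of a mature miRNA. Levels are given as RPTM, reads per 10000000 reads of the profile, and 277 mature miRNAs that averaged 5 RPTM or more over the 4 profiles were tested.

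MiRNAs are short RNAs that guide Argonaute proteins to messenger RNAs, mainly through pairing of their bases 2 to 8, the seed. The epithelium of the small intestine bears villi of absorptive enterocytes, while the large intestine has crypts without villi and many goblet cells, and both are wrapped in smooth muscle. In vertebrates miR-192, miR-194 and miR-215 are known as miRNAs of the gut epithelium, and the miR-196 and miR-10 genes lie within the HOX clusters, whose genes are used in order along the body axis.

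The sequences below belong to the miRNAs on which the comparison turns, written 5′ to 3′ with the seed in capitals. MiR-192-5p and miR-215-5p differ at 2 of 21 positions and share a seed, as do miR-196a-5p and miR-196b-5p, and miR-10a-5p and miR-10b-5p. For miR-802-5p and miR-31-5p the most abundant read is shown as well, because it began 1 nucleotide before the annotated 5′ end and so had another seed.
miR-802-5p, annotated: cAGUAACAaagauucauccuugu
miR-802-5p, most abundant read: uCAGUAACaaagauucauccuug
miR-31-5p, annotated: gGCAAGAUgcuggcauagcug
miR-31-5p, most abundant read: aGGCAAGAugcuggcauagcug
miR-215-5p: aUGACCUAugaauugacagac
miR-192-5p: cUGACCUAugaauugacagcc
miR-215-3p: uCUGUCAUuucuuuaggccaaua
miR-194-5p: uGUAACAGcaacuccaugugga
miR-196b-5p: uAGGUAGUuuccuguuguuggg
miR-196a-5p: uAGGUAGUuucauguuguugg
miR-10b-5p: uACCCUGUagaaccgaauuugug
miR-10a-5p: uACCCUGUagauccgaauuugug

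The same 5 miRNAs were the most abundant in both intestines, namely miR-143-3p, miR-192-5p, let-7f-5p, miR-10a-5p and miR-10b-5p. MiR-143-3p, a miRNA of smooth muscle and other mesenchymal cells, made up 46.0% and 49.9% of the counted reads in the small intestine and 45.3% and 58.8% in the large intestine. The epithelial miR-192-5p made up 29.1% and 22.8% of the counted reads in the small intestine and 18.9% and 7.31% in the large intestine, and miR-10b-5p of the HOXD cluster 2.13% and 3.72% of the counted reads in the small intestine and 9% and 12.7% in the large intestine. Let-7f-5p, of a family that is abundant in differentiated cells, was at 268682 and 215241 RPTM in the small intestine and 240474 and 264996 RPTM in the large intestine, which overlapped between the groups (edgeR, log2 fold change -0.15, SE 0.35, adjusted p = 0.887).

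The question of the comparison was which miRNAs differ between the intestines. In the small intestine 7 of 277 tested miRNAs were higher, namely miR-802-5p, miR-31-5p, both arms of mir-215, miR-194-5p and 2 overlapping annotations of miR-486-3p (edgeR quasi-likelihood test, Benjamini-Hochberg adjusted p under 0.05; 2.53% of those tested). In the large intestine none was called by that test. At an unadjusted p under 0.05, 15 miRNAs were higher in the large intestine (5.42%) and 23 in the small intestine (8.3%), and DESeq2 called 3 miRNAs higher in the large intestine (1.08%), miR-196b-5p, miR-10b-5p and miR-92b-3p. In the small intestine DESeq2 called 11 higher (3.97%), the 7 named above with miR-96-5p, miR-338-5p, miR-615-3p and miR-873-3p, of which the last was named after its values were seen. MiR-92b-3p, named here after its values were seen, was at 883 and 1811 RPTM in the small intestine and 4507 and 3142 RPTM in the large intestine (edgeR, log2 fold change -1.57, SE 0.43, adjusted p = 0.162). The median absolute log2 fold change was 0.42 over all 277 beside median absolute log2 differences of 0.42 and 0.40 between the 2 profiles of the small and of the large intestine. Both small intestine profiles exceeded both large intestine profiles for 75 miRNAs (27.1%), and the reverse held for 52 (18.8%), so that the groups did not overlap for 127 (45.8%).

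**Figure D1:**
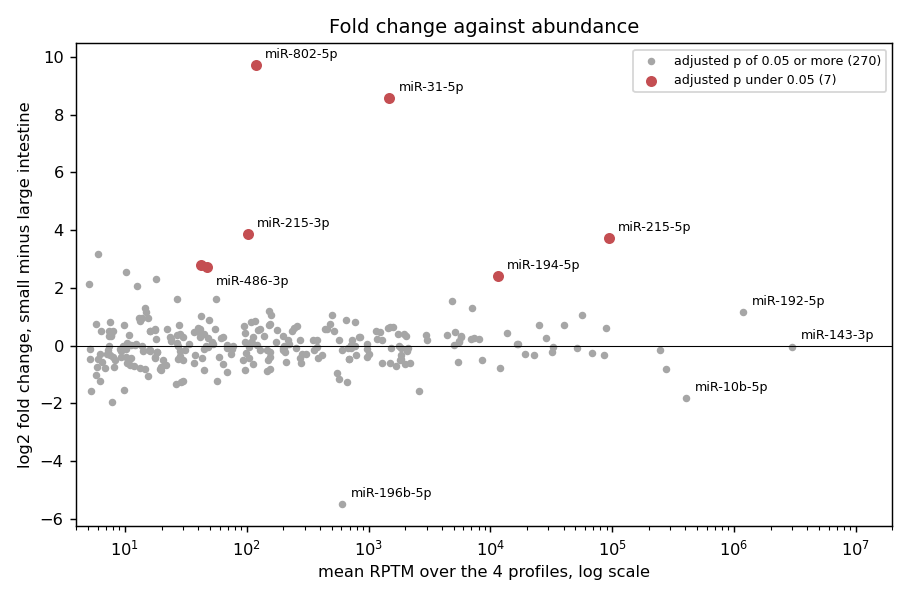
Log2 fold change (vertical axis, small minus large intestine) against the mean RPTM over the 4 profiles (horizontal axis, log scale) of the 277 tested miRNAs, with 1 point for each. The 7 miRNAs with an adjusted p under 0.05 are red and all lie above 0, and miR-196b-5p is the lowest point at -5.48.

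The 3 miRNAs chosen as markers of the tissues, miR-802, miR-215 and miR-196b, did not overlap between the groups, with miR-802 and miR-215 higher in both small intestine profiles and miR-196b higher in both large intestine profiles. Of all 277 tested miRNAs, 45.8% did not overlap either, so that the lack of overlap alone says little about the markers. MiR-802 is known from liver, pancreas and the proximal gut. Its 5p arm was at 376 and 103 RPTM in the small intestine and 0 and 0.425 RPTM in the large intestine. These levels rest on 920 and 244 reads in the small intestine and on 0 and 1 in the large intestine. A count of 0 in large intestine 1 allows up to 1.36 RPTM. The fitted difference was large (edgeR, log2 fold change 9.70, SE 1.07, adjusted p = 0.00413), and the ratio of the pooled reads, each divided by the pooled total reads, was 1103 with an exact 95% interval from 198 to 43619 for counting error only. The call was lost without large intestine 1 (edgeR, adjusted p = 0.103) and without large intestine 2 (adjusted p = 0.166). Of the miR-802-5p reads in the small intestine, 873 of 920 and 228 of 244 were the single read printed above that starts before the annotated end.

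MiR-31 is a miRNA of epithelia that is known to rise in inflamed and tumorous colon. Its 5p arm was at 3781 and 2140 RPTM in the small intestine and 2.26 and 11.9 RPTM in the large intestine, or 9241 and 5074 reads against 5 and 28. The groups lay far apart, although the 2 large intestine profiles differed from each other as well. The level was higher in the small intestine (edgeR, log2 fold change 8.58, SE 0.85, adjusted p = 0.00407) and stayed called when each of the 4 profiles was left out in turn (adjusted p from 0.00705 to 0.0159). Among the tested miRNAs it was 1 of 3 that were called and had a mean of over 1000 RPTM, the others being miR-215-5p and miR-194-5p. The read printed above with an additional base at its 5′ end made up 8717 of 9241 and 4846 of 5074 reads in the small intestine and 3 of 5 and 27 of 28 in the large intestine. The other arm, miR-31-3p, was not tested, at 0.818 and 0.844 RPTM in the small intestine and 0 and 0 RPTM in the large intestine.

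**Figure D2:**
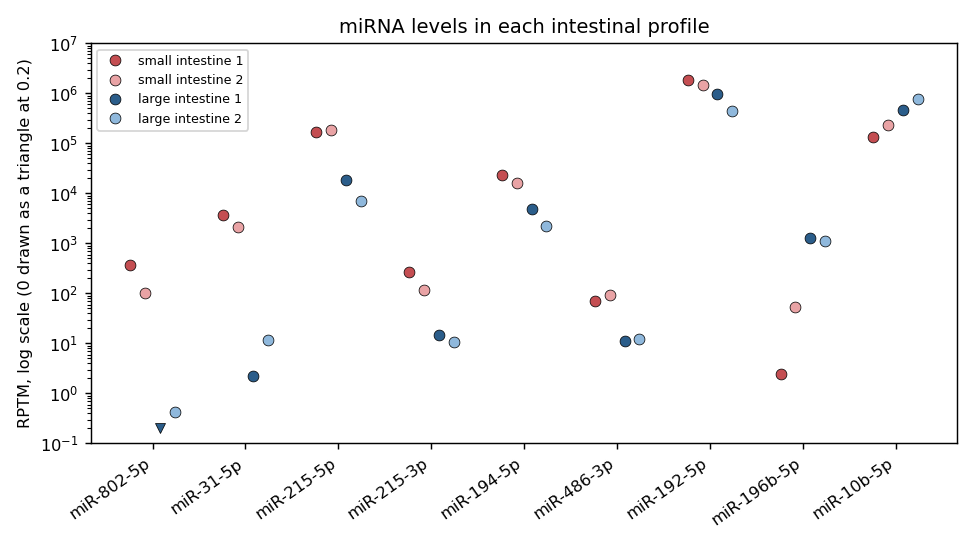
RPTM of 9 miRNAs (vertical axis, log scale) in each of the 4 profiles, with 1 point for each profile and a triangle for a profile without reads. For miR-802-5p and miR-31-5p both small intestine profiles lie far above both large intestine profiles, and for miR-196b-5p and miR-10b-5p they lie below.

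MiR-215 is encoded beside mir-194-1 in the IARS2 gene on chromosome 1, and miR-192 beside mir-194-2 on chromosome 14, by the neighbours in the RefSeq annotation of T2T-MMU8v2.0, of which only names and neighbours were used. MiR-215-5p was at 166876 and 183652 RPTM in the small intestine and 18791 and 6963 RPTM in the large intestine. Both small intestine profiles were close to each other and above both large intestine profiles (edgeR, log2 fold change 3.71, SE 0.52, adjusted p = 0.00843). The 3p arm went the same way at 270.5 and 115 RPTM in the small intestine and 14.5 and 10.6 RPTM in the large intestine (log2 fold change 3.86, SE 0.51, adjusted p = 0.00843, edgeR). The call on miR-215-5p was lost without small intestine 1 (edgeR, adjusted p = 0.0649) and without small intestine 2 (adjusted p = 0.0995), and that on miR-215-3p without large intestine 1 (adjusted p = 0.158) and without large intestine 2 (adjusted p = 0.230).

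MiR-192-5p, the close relative with the same seed, was far more abundant, at 1873843 and 1445511 RPTM in the small intestine and 978784 and 443632 RPTM in the large intestine. Its groups did not overlap, but the difference did not pass the test (edgeR, log2 fold change 1.16, SE 0.47, adjusted p = 0.326). In a sum chosen after the values were seen, with each read counted once, the shared seed of miR-192-5p and miR-215-5p reached 2040702 and 1629157 RPTM in the small intestine and 997562 and 450589 RPTM in the large intestine. MiR-215-5p made up 8.18% and 11.3% of that sum in the small intestine and 1.88% and 1.55% in the large intestine, and neither the sum nor the share overlapped between the groups. The reads of miR-215-5p were also split by 5′ end after the values were seen. Those that start at its annotated 5′ end, which no exact read of miR-192-5p can match, were at 164575 and 182011 RPTM in the small intestine and 16219 and 6684 RPTM in the large intestine. The remaining reads of miR-215-5p, with other 5′ ends, were at 2301 and 1641 RPTM in the small intestine and 2573 and 279 RPTM in the large intestine, and these overlapped between the intestines.

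MiR-194-5p is made from both pre-miRNAs, mir-194-1 and mir-194-2. It was at 23053 and 15874 RPTM in the small intestine and 4815 and 2256 RPTM in the large intestine, without overlap and higher in the small intestine (edgeR, log2 fold change 2.40, SE 0.44, adjusted p = 0.0322). The call was lost when any of the 4 profiles was left out (adjusted p from 0.0685 to 0.177), with RLE factors (adjusted p = 0.0664), with reads on 1 mature sequence (adjusted p = 0.0581) and with reads identical to the annotated mature sequence (log2 fold change 1.38, adjusted p = 0.151, all edgeR). MiR-194-2-3p, the other arm of mir-194-2, was at 244 and 191 RPTM in the small intestine and 103 and 96.5 RPTM in the large intestine and did not pass the test (edgeR, log2 fold change 1.04, SE 0.32, adjusted p = 0.219).

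The mature sequence of miR-194-5p is the same in both pre-miRNAs, but the bases that follow it differ, so that longer reads can be told apart by copy. This split was made after the values were seen and is given as a description. The 4 most abundant reads are printed with the bases past the annotated 3′ end in capitals, since these bases separate the copies.
either copy: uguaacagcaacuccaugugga
mir-194-1, 1 base longer: uguaacagcaacuccauguggaC
mir-194-1, 2 bases longer: uguaacagcaacuccauguggaCU
mir-194-2, 1 base longer: uguaacagcaacuccauguggaA

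Reads that match mir-194-1 alone were at 12465 and 9266 RPTM in the small intestine and 878 and 608 RPTM in the large intestine, a ratio of means of 14.6. Reads that match mir-194-2 alone were at 936 and 415 RPTM in the small intestine and 256 and 179 RPTM in the large intestine, a ratio of 3.11. Reads that match the copy beside mir-215 thus had the larger ratio, and the difference between the ratios was not tested. Of the reads that match 1 copy alone, 93.0% and 95.7% matched mir-194-1 in the small intestine and 77.4% and 77.2% in the large intestine. Reads of mir-194-1 that are 2 bases longer were at 3764 and 2307 RPTM in the small intestine and 115 and 104 RPTM in the large intestine. A base added to the end of a mir-194-2 product could mimic a mir-194-1 read, and single C tails were common in these profiles, from 31.5% to 64.9% of tailed reads and most frequent in large intestine 1. An A added to a mir-194-1 product could likewise mimic the mir-194-2 read, and single A tails made up 6.9% to 11.9% of tailed reads. Reads that match either copy had a ratio of means of 3.08, beside 3.11 for mir-194-2. The part of either tail in the levels, ratios and copy shares was not tested.

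**Figure D3:**
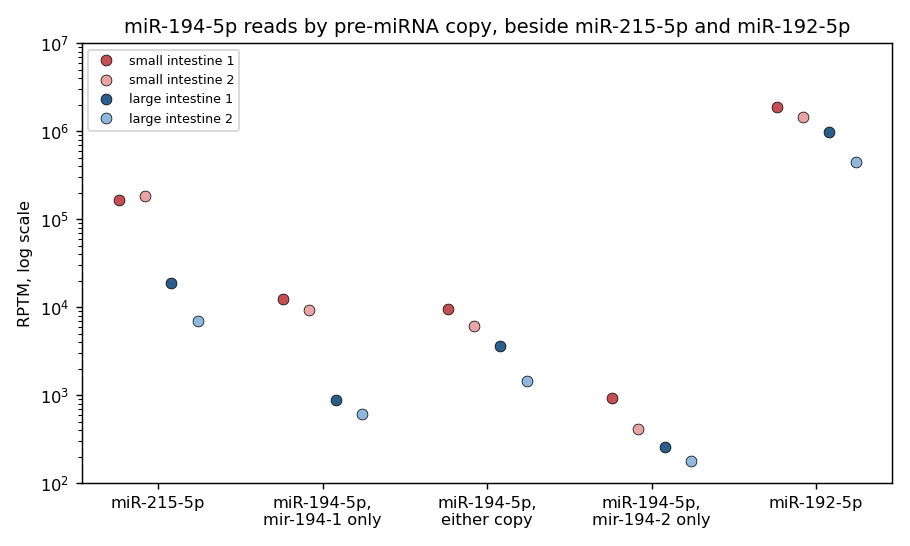
RPTM (vertical axis, log scale) of miR-215-5p, of miR-194-5p reads that match only mir-194-1, either copy or only mir-194-2, and of miR-192-5p, with 1 point for each of the 4 profiles. The gap between the intestines is wide for miR-215-5p and mir-194-1 and narrower for mir-194-2 and miR-192-5p. The ratio of means is 14.6 for mir-194-1 and 3.11 for mir-194-2.

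MiR-486 lies in ANK1 and is best known from red blood cells and muscle. MiR-486-3p was at 71.2 and 93.6 RPTM in the small intestine and 11.3 and 12.3 RPTM in the large intestine and was higher in the small intestine (edgeR, log2 fold change 2.72, SE 0.38, adjusted p = 0.00843). A longer annotation of the same arm, which shares its reads, gave a log2 fold change of 2.79 (edgeR, adjusted p = 0.0190), so that the 7 calls stand for 6 distinct miRNAs. The main arm, miR-486-5p, did not pass the test at 15116 and 17119 RPTM in the small intestine and 9347 and 12857 RPTM in the large intestine (edgeR, log2 fold change 0.45, SE 0.34, adjusted p = 0.588). The ratio of the 3p arm to the 5p arm on the log2 scale was -7.73 and -7.51 in the small intestine and -9.69 and -10.03 in the large intestine, computed with the shorter annotation. The call on miR-486-3p was lost without small intestine 2 (edgeR, adjusted p = 0.0936), large intestine 1 (adjusted p = 0.158) or large intestine 2 (adjusted p = 0.177), and with reads on 1 mature sequence (adjusted p = 0.277). The other miRNAs of red blood cells were not called either, with miR-451-5p at 47.1 and 102 RPTM in the small intestine and 46.1 and 105 RPTM in the large intestine and miR-144-3p at 4.91 and 5.90 RPTM in the small intestine and 3.16 and 11.9 RPTM in the large intestine.

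Among the miRNAs of the HOX clusters, 5 of 7 tested had both large intestine profiles above both small intestine profiles and 1 the reverse, beside 18.8% and 27.1% of all miRNAs, but edgeR called none (median log2 fold change -0.82, and 0.00 over all 277). DESeq2 called 3 of them, miR-196b-5p and miR-10b-5p higher in the large and miR-615-3p higher in the small intestine. MiR-196b, which lies between HOXA10 and HOXA9, showed the widest gap. Its 5p arm was at 2.46 and 53.6 RPTM in the small intestine and 1265 and 1117 RPTM in the large intestine, or 6 and 127 reads against 2799 and 2628. The groups were far apart and the large intestine profiles close to each other, while the 2 small intestine profiles differed by 21.8 times (edgeR, log2 fold change -5.48, SE 1.14, adjusted p = 0.0594). The difference passed the threshold in DESeq2 (adjusted p = 0.0233), without small intestine 1 (edgeR, adjusted p = 0.0108) and without small intestine 2 (edgeR, adjusted p = 0.00156). It did not without large intestine 1 (edgeR, adjusted p = 0.281) or without large intestine 2 (edgeR, adjusted p = 0.446).

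MiR-196a-5p, which has the same seed, did not separate the intestines, at 21.3 and 654 RPTM in the small intestine and 549 and 326 RPTM in the large intestine (edgeR, log2 fold change -0.43, SE 1.14, adjusted p = 0.890). Small intestine 2 was the highest of the 4 profiles and small intestine 1 the lowest, and without small intestine 1 the log2 fold change changed sign to 0.54. Without small intestine 2 it was -4.67 and was called (edgeR, adjusted p = 0.0137). MiR-196a-5p is made from 2 genes in different HOX clusters, and reads that run past the mature 3′ end can be told apart, a split made after the values were seen. Reads that match mir-196a-2 alone, which lies beside mir-615 in the HOXC cluster, were at 18.4 and 495 RPTM in the small intestine and 364 and 193 RPTM in the large intestine. Reads that match mir-196a-1 alone were at 0.818 and 91.5 RPTM in the small intestine and 98.1 and 73.1 RPTM in the large intestine.

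MiR-10b-5p, from the HOXD cluster, was at 136781 and 236448 RPTM in the small intestine and 466092 and 773620 RPTM in the large intestine (edgeR, log2 fold change -1.82, SE 0.47, adjusted p = 0.138). MiR-10a-5p, from the HOXB cluster, was at 143916 and 270069 RPTM in the small intestine and 371149 and 323965 RPTM in the large intestine (edgeR, log2 fold change -0.82, SE 0.42, adjusted p = 0.446). Both were lowest in small intestine 1 and did not overlap between the groups, yet neither passed the test, whereas DESeq2 called miR-10b-5p (adjusted p = 0.00132). Mature miR-10a-5p and miR-10b-5p differ at 1 of 23 positions. MiR-615-3p, within HOXC5, went the other way at 13.9 and 21.5 RPTM in the small intestine and 4.52 and 1.28 RPTM in the large intestine (edgeR, log2 fold change 2.54, SE 0.67, adjusted p = 0.138). These levels rest on 34 and 51 reads in the small intestine and on 10 and 3 in the large intestine. It was called in 2 of 8 alternatives that keep all profiles, DESeq2 among them (adjusted p = 0.0233).

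**Figure D4:**
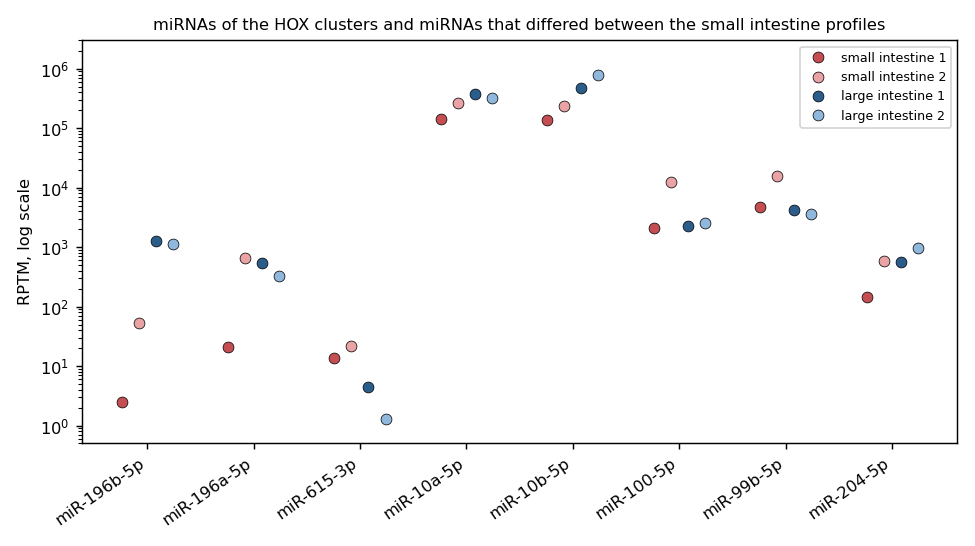
RPTM (vertical axis, log scale) of 5 miRNAs of the HOX clusters and of miR-100-5p, miR-99b-5p and miR-204-5p in each of the 4 profiles, with 1 point for each profile. The 2 small intestine profiles lie wide apart for miR-196a-5p, at 21.3 and 654 RPTM, and for miR-196b-5p and miR-100-5p.

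The 2 small intestine profiles differed by over 2 on the log2 scale of RPTM + 1 for 6 of the 277 miRNAs, and the 2 large intestine profiles for 3. Beside miR-196a-5p and miR-196b-5p these 6 were miR-100-5p, miR-1271-5p and miR-204-5p, all higher in small intestine 2, and miR-431-5p, which was lower there. They were chosen after their values were seen. MiR-100-5p, encoded beside a let-7 gene, was at 2111 and 12653 RPTM in the small intestine and 2285 and 2504 RPTM in the large intestine, with small intestine 2 alone above the rest. MiR-99b-5p, of the same seed family and likewise beside let-7, was at 4644 and 15857 RPTM in the small intestine and 4263 and 3585 RPTM in the large intestine. The Euclidean distance of log2(RPTM + 1) over the 277 miRNAs was 13.1 between the small intestine profiles and 11.3 between the large intestine profiles, while small intestine 2 was at 19.1 and 18 from the large intestine profiles and small intestine 1 at 22.2 and 21.9.

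No other miRNA of epithelia was called by edgeR, and DESeq2 called miR-96-5p. MiR-182, miR-96 and miR-183 come from 1 cluster that is known from sensory and other epithelia, and all 3 had both small intestine profiles above both large intestine profiles, beside 27.1% of all miRNAs. MiR-182-5p was the most abundant of them at 97610 and 57522 RPTM in the small intestine and 44963 and 25905 RPTM in the large intestine (edgeR, log2 fold change 1.06, SE 0.41, adjusted p = 0.326). MiR-96-5p was at 79.0 and 91.5 RPTM in the small intestine and 38.4 and 15.3 RPTM in the large intestine (edgeR, log2 fold change 1.61, SE 0.45, adjusted p = 0.162; DESeq2, adjusted p = 0.0375), and miR-183-5p gave a log2 fold change of 1.05. MiR-203-3p, a miRNA of differentiating epithelium, lay the other way at 292 and 522 RPTM in the small intestine and 1029 and 823 RPTM in the large intestine (edgeR, log2 fold change -1.26, SE 0.39, adjusted p = 0.219). The miR-200 family, which represses the ZEB factors and is kept on in epithelial cells, had 6 tested members with a median log2 fold change of 0.09, all 6 overlapping between the groups, and its summed level was 11565 and 6351 RPTM in the small intestine and 10526 and 3850 RPTM in the large intestine. MiR-375-3p, an miRNA of endocrine and other secretory epithelial cells, was at 108890 and 107201 RPTM in the small intestine and 95210 and 42511 RPTM in the large intestine and was not called (edgeR, log2 fold change 0.59, SE 0.42, adjusted p = 0.588).

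Markers of other cell types that a piece of intestine can hold were counted to see whether they moved with the comparison. MiR-143-3p of smooth muscle and other mesenchymal cells was the most abundant miRNA of both intestines at 2962642 and 3167003 RPTM in the small intestine and 2345167 and 3567909 RPTM in the large intestine, with a log2 fold change of -0.04 in edgeR that changed sign to 0.05 with all valid reads as the library size. The summed level of the 4 tested miRNAs of mir-143 and mir-145 ranged from 2347119 to 3570598 RPTM, with both extremes in the large intestine. EdgeR called none of 11 tested miRNAs of leukocytes (median log2 fold change 0.28), and their summed level was 13490 and 10118 RPTM in the small intestine and 10076 and 17569 RPTM in the large intestine. Likewise edgeR called none of 10 stromal miRNAs (median -0.01), of 10 miRNAs of neurons and glia (median -0.03), of 4 of striated and other muscle (median -0.47) or of 1 of endothelium, miR-126-3p (-0.03). Among the 4 of muscle, miR-133a-3p and miR-133c-3p had the same read counts in every profile and are not independent. Over all 277 miRNAs edgeR called 2.53%, so that lists of this size can well hold none. Both small intestine profiles exceeded both large intestine profiles for 4 leukocyte miRNAs, 3 of neurons and glia and 2 of mir-143 and mir-145 (27.1% of all). The reverse held for 2 stromal miRNAs and 1 of neurons and glia (18.8% of all), and the rest overlapped. MiRNAs of other digestive organs were near 0, with the liver miRNA miR-122a-5p at 1.23 and 2.11 RPTM in the small intestine and 2.26 and 1.28 RPTM in the large intestine and the sum of the acinar pancreas miRNAs at 0.818 and 0.844 RPTM in the small intestine and 0.452 and 1.70 RPTM in the large intestine. MiR-205-5p of stratified epithelium had 1 read, in small intestine 1. MiR-338-5p, from an intron of the AATK gene and listed with glia, was at 21.3 and 38.8 RPTM in the small intestine and 4.97 and 6.38 RPTM in the large intestine, without overlap between the groups (edgeR, log2 fold change 2.31, SE 0.53, adjusted p = 0.0889). MiR-338-5p was called in 3 of 8 alternatives that keep all profiles, among them DESeq2 (adjusted p = 0.00597) and edgeR without a filter on low values (adjusted p = 0.0273). Leaving out 1 profile gave log2 fold changes from 1.58 to 2.71. DESeq2 called no other tested miRNA of leukocytes, stroma, neurons, glia, muscle or endothelium.

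**Figure D5:**
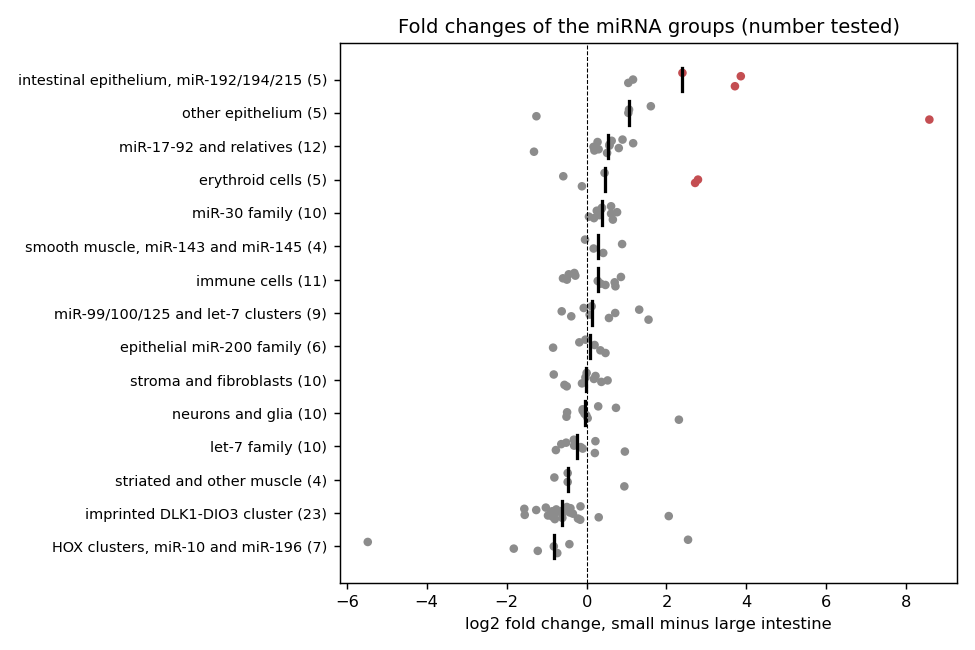
Log2 fold changes (horizontal axis, small minus large intestine) of the tested members of 15 groups of miRNAs, with 1 point for each miRNA, red for an adjusted p under 0.05, and a bar at the median of the group. The dashed line is the median of all 277 tested miRNAs, and called members appear in the group of miR-192, miR-194 and miR-215, other epithelium and erythroid cells.

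The remaining groups, defined by a genomic cluster, a family or a condition, held no member called by edgeR or DESeq2. Of all 277, edgeR called 2.53%. DESeq2 called 3.97% of all higher in the small and 1.08% higher in the large intestine. Of the 23 tested miRNAs of the imprinted DLK1-DIO3 cluster, which is expressed from the maternal chromosome and is most active in brain and mesenchymal tissue, 21 had a negative log2 fold change (138 of all 277). Of these 23, 14 had both large intestine profiles above both small intestine profiles (18.8% of all). The median log2 fold change of the 23 was -0.61. MiR-409-3p of this cluster was at 437 and 332 RPTM in the small intestine and 746 and 677 RPTM in the large intestine (edgeR, log2 fold change -0.97, SE 0.32, adjusted p = 0.249), and miR-432-5p at 18 and 16.9 RPTM in the small intestine and 48.8 and 31.0 RPTM in the large intestine (edgeR, log2 fold change -1.26, SE 0.41, adjusted p = 0.237). Its members lie in 1 genomic cluster and are not independent of each other. Of 12 tested miRNAs of the mir-17-92 cluster and its relatives, which are known from dividing cells, 10 had both small intestine profiles above both large intestine profiles (27.1% of all). The median log2 fold change of the 12 was 0.54. MiR-19a-3p was at 1028 and 712 RPTM in the small intestine and 492 and 393 RPTM in the large intestine (edgeR, log2 fold change 0.90, SE 0.34, adjusted p = 0.324). The reverse held for miR-363-3p, at 10.2 and 21.1 RPTM in the small intestine and 38.9 and 35.3 RPTM in the large intestine. Its log2 fold change of -1.32 was the only negative value and the largest in absolute size of the list. MiR-92b-3p, given above, has the seed of miR-25-3p but was not in the list. Members that share a genomic cluster are not independent of each other. The miR-30 family had 10 of 10 tested members with a positive log2 fold change (median 0.38), the let-7 family 7 of 10 with a negative one (median -0.23), and the 3 miRNAs of the miR-29 family had a median of 0.01. Over all 277 miRNAs, 139 log2 fold changes were positive and 138 negative. The tested miR-30 members come from 6 pre-miRNAs and are not independent of each other. The 9 tested miRNAs encoded beside let-7 genes had a median of 0.13, and miR-210-3p, which is induced in hypoxia, a log2 fold change of -0.10.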

How the data were processed

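Small RNA of 4 profiles, 2 of the small and 2 of the large intestine, was analysed, with groups and replicate numbers taken from the sample titles. The deposited values are counts of each unique sequence. The authors extracted total RNA with TRIzol, sequenced small RNA libraries on an Illumina HiSeq instrument, filtered them by quality, clipped adapters, dropped those under 18 nucleotides and collapsed the rest into counts, without normalization. PCR duplicates were not removed, so that intervals and floors cover counting error only.

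Pre-miRNAs and mature sequences were read from the study's annotation, of which 832 pre-miRNAs could be read. The paper describes a longer merged list, so that the counts and tests cover these 832 alone. Each read identical to a stretch of a pre-miRNA was assigned to a mature miRNA if neither end lay over 2 nucleotides from the mature end; a read that fits several mature sequences was counted for each. Profiles held 22118095 to 24438680 reads, so that 1 read is 0.409 to 0.452 RPTM. Tests used edgeR 4.0.16 (TMM, quasi-likelihood, Benjamini-Hochberg adjustment) in R 4.3.3 on miRNAs that averaged 5 RPTM or more, after a check on simulated counts; an exact permutation test of 2 against 2 profiles cannot go below p = 0.333. The alternatives were DESeq2 1.42.0, other scalings, filters and counting rules, a replicate block and leaving out each profile. MiRNAs were named as tissue markers, as called miRNAs with groups that do not overlap (up to 12 in each direction by fold), as the 5 most abundant in each intestine, as called miRNAs that averaged 1000 RPTM or more, or as members of lists by cell type, genomic cluster or family. Members and lists were chosen with earlier results of these data known. The other 8 profiles were not used here.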

Additional observations from a re-analysis of the deposited data

How the results depend on the processing

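The count of 7 miRNAs higher in the small intestine became 3 with reads identical to the mature sequence, under which miR-31-5p and miR-802-5p could not be tested because most of their reads start 1 nucleotide early, 4 with reads on 1 mature sequence, 11 with DESeq2, and 2 to 7 when 1 profile was left out (7 without small intestine 1, 3 without small intestine 2, 2 without large intestine 1 and 2 without large intestine 2). The count of 0 miRNAs higher in the large intestine became 2 without a filter on low values, 1 with a mean of at least 50 RPTM, 1 with a filter on mean and SD, 2 with identical reads, 1 with tailed reads, 3 with DESeq2, and 0 to 2 when 1 profile was left out (1 without small intestine 1, 2 without small intestine 2). With reads on 1 mature sequence, the reads that the 2 annotations of miR-486-3p share were left out. The longer annotation was then no longer tested, and the other was not called (edgeR, adjusted p = 0.277). The cause of the other differences was not tested where none is named. MiR-196b-5p was called in 7 of 10 alternatives that keep all profiles, with log2 fold changes from -6.37 to -5.41, and miR-802-5p and miR-31-5p were called in each of the 9 such alternatives in which they were tested. MiR-196a-5p reversed to 0.54 without small intestine 1, and miR-143-3p, near 0, to 0.0519 with valid reads as library size. Leaving out 1 profile gave -4.67 to 0.54 for miR-196a-5p and -0.35 (without large intestine 1) to 0.36 (without large intestine 2) for miR-143-3p.

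With the replicate number as a block, 12 miRNAs were higher in the small and 6 in the large intestine, and the log2 fold change of miR-143-3p was 0.00433. The labels do not say what the numbers mark, and the deviations of same-numbered profiles from their group means correlated with r = 0.0906 across 277 miRNAs, which are not independent replicates. Without miR-143-3p, the difference between the intestines (small minus large) changed from -3.25 to -4.05 percentage points for tailed reads, -0.800 to -2.07 for shifted 5′ ends, -8.69 to -14.0 for shifted 3′ ends and -3.54 to 0.311 for the 3p arm. These moves were below the SD of the large intestine profiles with all miRNAs counted, and those of both ends and of the 3p arm were above that of the small intestine profiles. Without miR-143-3p, the SD of the large intestine profiles for the 3p arm fell from 8.15 to 0.801, below the move of that share. The SD of the small intestine profiles for tailed reads fell from 1.53 to 0.652, also below the move. With tails of 1 nucleotide only, the difference for tailed reads was -3.49. With 2 profiles in each intestine, differences of small size could not be resolved, and leaving out 1 profile assumes that the lone profile varies like the other group.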

Other observations

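The ends of the reads differed between the intestines for a few miRNAs, given here as descriptions without a test. Among 94 miRNAs with at least 500 reads in every profile, the share of reads with a shifted 3′ end differed by a median of 1.22 percentage points between the group means. MiR-194-5p had the largest difference, with 59.7% and 62.1% in the small and 25.5% and 36.4% in the large intestine. MiR-10a-5p, which silences some HOX messages, had 59.0% and 63.8% in the small and 37.7% and 50.6% in the large intestine. Both arms of 44 pre-miRNAs had at least 20 reads in every profile, and the log2 ratio of the 3p to the 5p arm did not overlap between the intestines for 16 of the 44. Beside this, the RPTM of 45.8% of the 277 tested miRNAs did not overlap. Full separation of 2 against 2 profiles has p = 0.333 in an exact permutation test. The widest of these 16 was mir-486, given above. The lowest difference was that of mir-194-2, at -6.56 and -6.38 in the small and -5.55 and -4.55 in the large intestine, where the 5p reads include those of mir-194-1. Mir-17, of the mir-17-92 cluster and named here for its small spread within either intestine, had -2.43 and -2.42 in the small and -1.92 and -1.92 in the large intestine.

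Over all counted miRNAs, reads with 1 or 2 added bases at the 3′ end made up 27.1% and 29.3% in the small intestine and 37.2% and 25.8% in the large intestine, with large intestine 1 above the rest. A single added C made up 36.9% and 52.3% of tailed reads in the small intestine and 64.9% and 31.5% in the large intestine, and a single added U 34.9%, 27.8%, 15.7% and 39.2% in the same order. The share of reads with a shifted 5′ end was 3.85% and 3.73% in the small intestine and 5.60% and 3.58% in the large intestine. The share with a shifted 3′ end was 39.6% and 38.0% in the small intestine and 38.2% and 56.8% in the large intestine, and that of the 3p arm 51.6% and 55.6% in the small intestine and 51.4% and 62.9% in the large intestine. For each of the 4 shares, the 2 large intestine profiles differed by more than the means of the intestines. Without miR-143-3p the groups did not overlap for shifted 3′ ends, at 25.2% and 30.8% in the small intestine and 34.0% and 49.9% in the large intestine, nor for shifted 5′ ends, at 6.52% and 6.55% in the small intestine and 9.65% and 7.55% in the large intestine. The number of unique sequences was 278383 and 285593 in the small intestine and 549104 and 599044 in the large intestine at similar depth, and the origin of the sequences that match no pre-miRNA was not analysed here.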
